A study of Mus musculus with 18 samples.

Results

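Transcription factors of the secretory lineage were examined in colon crypt epithelial cells of WT and Ern2-/- mice. The set comprised 9 genes, Atoh1, Gfi1, Spdef, Klf4, Foxa1, Foxa2, Foxa3, Creb3l1 and Creb3l4, taken by symbol from the 24047 genes of the deposited count table, and all 9 were found and tested in every comparison. Crypts came from C57BL/6 mice that were WT or carried the Ern2-/- genotype, and each genotype was studied in 3 microbial states. GF mice were kept germ free. COLONIZED mice had been germ free until a single gavage of cecal homogenate from WT SPF mice, 14 days before crypts were taken, and CONV mice were conventionally raised (SPF). This gave 6 groups of 3 libraries, or 18 libraries in all. Age is not given in the sources used here, and nothing in the labels says whether each library came from a separate mouse, so p-values measure only the spread between these libraries.

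Secretory cells of the intestine arise where Notch signaling is low. Atoh1 commits a progenitor to the secretory fate, Gfi1 acts after it and holds goblet precursors away from the enteroendocrine program, and Spdef and Klf4 promote goblet cell maturation. The forkhead factors Foxa1, Foxa2 and Foxa3 bind regulatory regions of mucin and endocrine genes, and Creb3l1 and Creb3l4 are bZIP factors held in the membrane of the endoplasmic reticulum (ER) until proteolysis releases their active part. ERN2 (IRE1β), the product of Ern2, is a stress sensor of the ER found in goblet cells, so these factors belong to the lineage in which Ern2 is expressed. In bulk crypt RNA, fewer cells of a type and less RNA per cell cannot be told apart.

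Counts were scaled by DESeq2 size factors and are given as normalized counts. Library totals ran from 5865619 to 23154481 counts, with the lowest in CONV-Ern2-/- and the highest in GF-WT. Normalized Ern2 counts of replicates 1, 2 and 3 were 998, 1622 and 1487 in CONV-Ern2-/-, 2567, 1325 and 1885 in COLONIZED-Ern2-/- and 2877, 386 and 3336 in GF-Ern2-/-, against 1909 to 3100 in the 9 WT libraries. Because 3 libraries labelled Ern2-/- reached WT levels, every direction between genotypes refers to the label; counts per gene do not show whether part of the transcript was missing. Epithelial markers (6 genes summed) were high in every library, at 97660 to 145470, and immune markers summed to 150 to 1228 except in COLONIZED-WT replicate 2, at 2660.

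Goblet and absorptive colonocyte markers set some libraries apart. Goblet markers (8 genes, none at 0) summed to 618140, 542460 and 89510 in CONV-WT replicates 1, 2 and 3 and to 66483 to 84877 in CONV-Ern2-/-. Absorptive markers (6 genes, none at 0) summed to 29987, 61316 and 293270 in CONV-WT and to 305630 to 412910 in CONV-Ern2-/-. Thus CONV-WT replicate 3 lay near the CONV-Ern2-/- libraries for both lists. GF-Ern2-/- replicate 2 had the highest absorptive sum of all 18 libraries, at 426410, whereas replicates 1 and 3 of that group had 48375 and 71827. The main results below are also given without these 2 libraries.

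**Figure D1:**
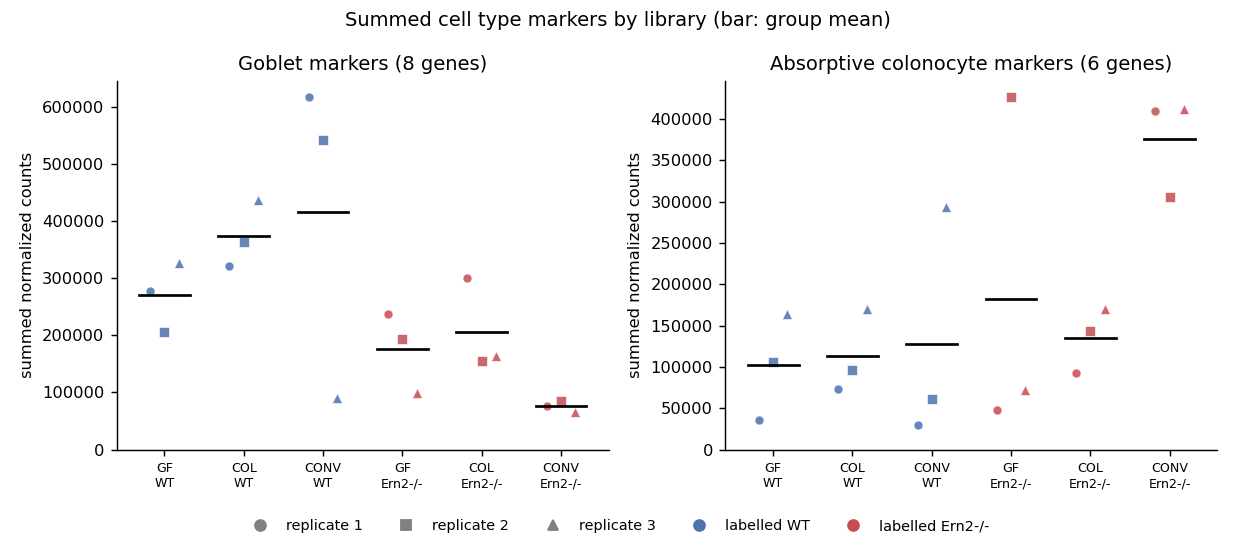
Summed normalized counts (y axis) of 8 goblet markers (left) and 6 absorptive colonocyte markers (right) in each library, by group; COL stands for COLONIZED, symbols mark replicates and black bars are group means. CONV-WT replicate 3, at 89510 for goblet and 293270 for absorptive markers, sits beside the 3 CONV-Ern2-/- libraries, and GF-Ern2-/- replicate 2 is the highest point for absorptive markers at 426410.

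Because Atoh1, Gfi1, Spdef and Foxa3 fell together in CONV-Ern2-/- crypts, in the comparison of CONV mice and in each of its fits that left out 1 library, their promoters are shown, from 250 bases before to 50 bases after the RefSeq start site on GRCm38 (mm10). Capitals mark matches to the binding letters of the factor families in this set, searched on both strands: CANNTG (E-box, bound by Atoh1 and other bHLH factors), TGTTTAC (forkhead), TGACGT (CRE core, bZIP), AAATCA (GFI1 core), CACCC (KLF box) and CGGAT (SPDEF core). The windows are chr6:64728875-64729174 on the plus strand (Atoh1), chr5:107725756-107726055 on the minus strand (Gfi1, the 5′-most of 2 start sites), chr17:27728902-27729201 on the minus strand (Spdef) and chr7:19023490-19023789 on the minus strand (Foxa3).
Atoh1: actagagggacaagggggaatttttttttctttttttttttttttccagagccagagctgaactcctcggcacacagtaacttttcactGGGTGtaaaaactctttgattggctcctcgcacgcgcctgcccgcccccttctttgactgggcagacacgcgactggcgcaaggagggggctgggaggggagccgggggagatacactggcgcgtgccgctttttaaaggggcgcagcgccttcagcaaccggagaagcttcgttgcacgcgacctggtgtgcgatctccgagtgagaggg
Gfi1: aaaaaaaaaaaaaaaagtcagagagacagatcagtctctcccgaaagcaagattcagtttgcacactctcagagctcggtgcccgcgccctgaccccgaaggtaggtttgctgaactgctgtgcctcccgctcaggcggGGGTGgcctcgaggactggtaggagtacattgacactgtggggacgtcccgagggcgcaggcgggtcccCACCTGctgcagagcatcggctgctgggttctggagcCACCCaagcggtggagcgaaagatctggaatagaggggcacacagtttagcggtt
Spdef: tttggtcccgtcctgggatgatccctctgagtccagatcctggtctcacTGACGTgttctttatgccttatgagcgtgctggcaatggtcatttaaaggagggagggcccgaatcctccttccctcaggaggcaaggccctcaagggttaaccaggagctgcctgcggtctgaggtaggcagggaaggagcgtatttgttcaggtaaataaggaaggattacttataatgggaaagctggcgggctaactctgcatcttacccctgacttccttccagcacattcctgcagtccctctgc
Foxa3: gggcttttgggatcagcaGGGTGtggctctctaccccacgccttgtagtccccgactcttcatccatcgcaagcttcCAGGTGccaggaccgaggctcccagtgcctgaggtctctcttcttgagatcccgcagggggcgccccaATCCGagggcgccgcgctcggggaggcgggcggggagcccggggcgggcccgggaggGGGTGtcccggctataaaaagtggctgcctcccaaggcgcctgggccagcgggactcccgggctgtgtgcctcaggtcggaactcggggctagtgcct

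These promoters shared no motif across all 4. In Gfi1 an E-box, CACCTG, began 42 bases before the start and KLF boxes began at -111 and -5. The Foxa3 window held an E-box at -173, an SPDEF core at -105 and KLF boxes at -232 and -48. Spdef had the only CRE core of the set, at -201, and Atoh1 had a KLF box alone, at -161. Over the 13 windows of the 8 members with an entry, an E-box was present in 6 members and a KLF box in 6, and the forkhead, CRE, GFI1 and SPDEF letters in 1 each. The forkhead match lay in Foxa1, and the GFI1 core in a Foxa2 window. Of 32544 promoters of the same length, 72.3% held an E-box, 57.7% a KLF box, 16.3% the SPDEF core, 13.9% the GFI1 core, 7.55% the CRE core and 3.66% the forkhead letters. These shares are per single promoter, whereas a member counted if any of its windows matched, so they are not directly comparable. None of the matches in these windows overlapped another, and no entry was matched for Creb3l1.

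The 9 factors differed widely in level. Per kilobase of exon, mean normalized counts over the 18 libraries were 3614 for Klf4 and 2443 for Creb3l1, the most abundant of the set, followed by 752 for Spdef, 534 for Atoh1, 505 for Foxa1, 406 for Foxa3, 379 for Creb3l4, 250 for Foxa2 and 61.3 for Gfi1. The spread over groups was widest in the least abundant, since the highest group mean of Gfi1 was 7.90 times its lowest. The ratio was 5.84 for Spdef, 3.95 for Creb3l4, 3.31 for Creb3l1, 3.17 for Foxa2, 2.94 for Atoh1, 2.78 for Foxa3 and 1.75 for Klf4, and it was 1.36 for Foxa1. CONV-Ern2-/- had the lowest mean of 6 members, Atoh1, Gfi1, Foxa1, Foxa2, Creb3l1 and Creb3l4. CONV-WT had the highest mean of 4, Atoh1, Gfi1, Spdef and Foxa3. Neighbours in the order of the 6 group means mostly overlapped, with overlapping libraries in 36 of 45 neighbouring pairs.

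**Figure D2:**
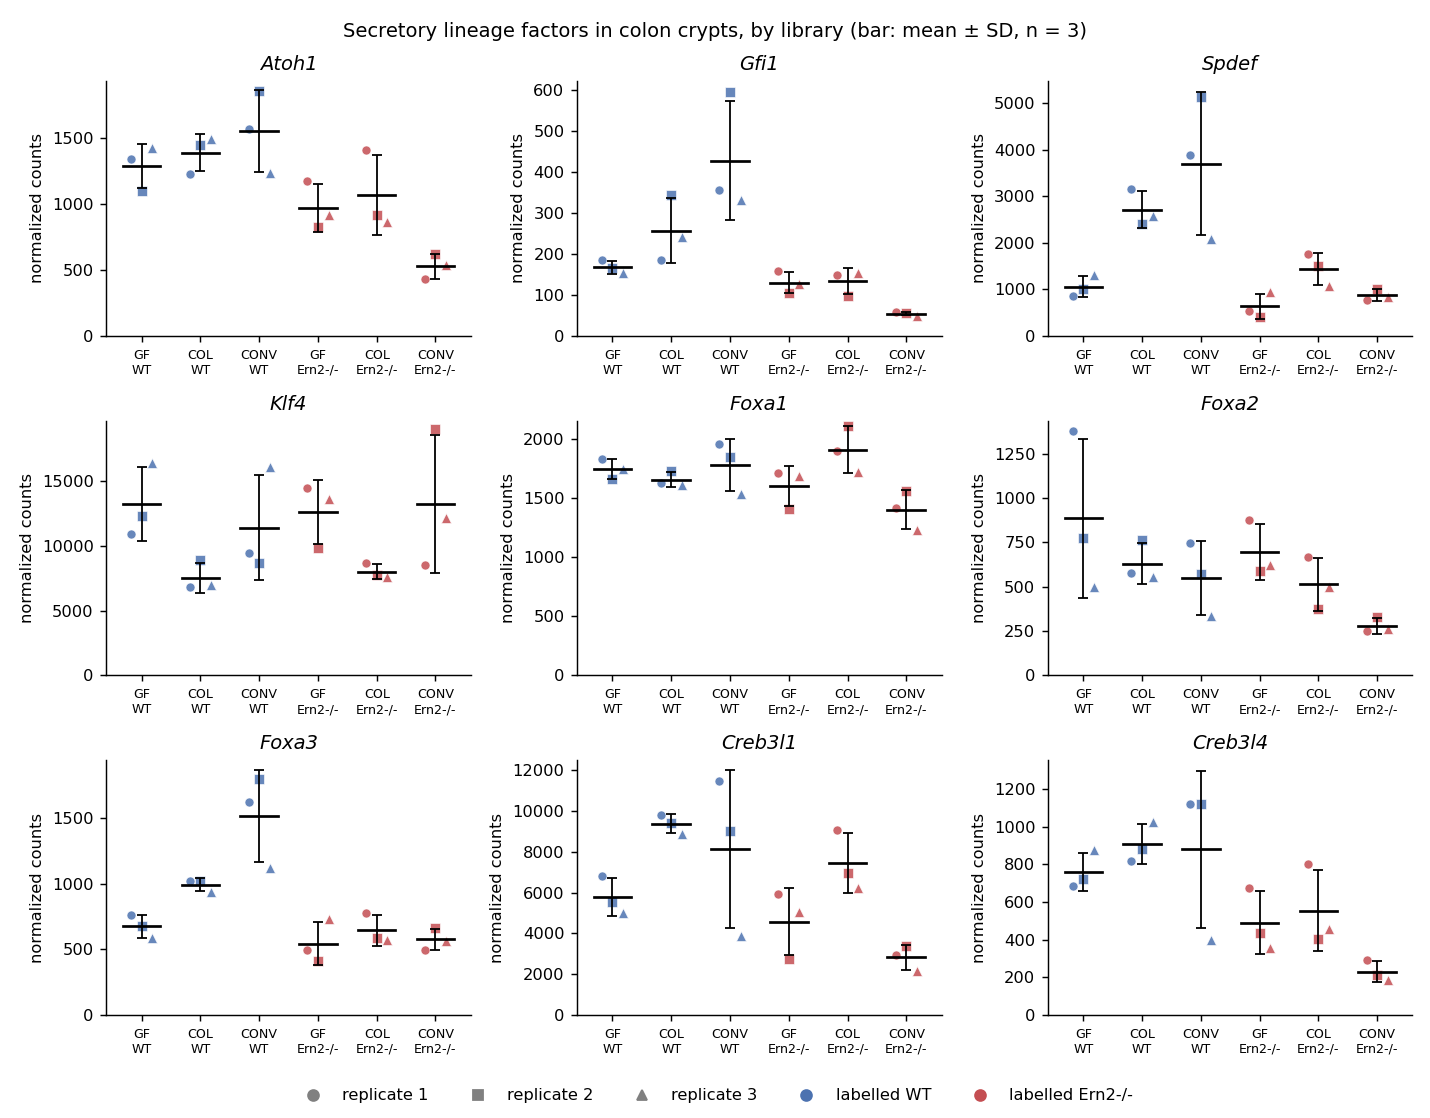
Normalized counts of the 9 factors in each library, by group; COL stands for COLONIZED, symbols mark replicates, and black bars with whiskers are the mean and SD of 3 libraries on axes that start at 0. In CONV-Ern2-/- Gfi1 lies at 49.7 to 57.4, against 332 to 596 in CONV-WT, whereas Foxa1 stays between 1231 and 2109 in every library.

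The commitment factors are Atoh1 and Gfi1. Atoh1 (ENSMUSG00000073043.5, chr6:64729125-64731245, plus strand), the bHLH factor that opens the secretory program, had 1565, 1852 and 1236 normalized counts in CONV-WT replicates 1, 2 and 3 and 429, 618 and 538 in those labelled CONV-Ern2-/-. In GF mice it had 1340.5, 1099.8 and 1424 in WT and 1170.0, 824 and 914 in Ern2-/- libraries, and in COLONIZED mice 1226, 1449 and 1489 against 1412, 918 and 864. The CONV groups did not overlap, and the GF and COLONIZED groups did.

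Gfi1 (ENSMUSG00000029275.18, chr5:107716657-107726036, minus strand), a zinc-finger repressor, had 356, 596 and 332 normalized counts in CONV-WT and 57.4, 55.5 and 49.7 in CONV-Ern2-/- libraries. In COLONIZED mice the values were 186, 344 and 242 in WT and 149, 97.2 and 154 in Ern2-/- libraries, and in GF mice 185, 166 and 153 against 158, 105 and 127. Gfi1 thus separated the genotype labels in CONV and COLONIZED mice, while the GF groups overlapped at 1 library.

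The maturation factors are Spdef and Klf4. Spdef (ENSMUSG00000024215.14, chr17:27714352-27728955, minus strand), an ETS factor of maturing goblet cells, had 863, 1014 and 1297 normalized counts in GF-WT. Colonized WT crypts had 3164, 2397 and 2574, and CONV-WT had 3874, 5129 and 2078. Every WT library of mice with microbes lay above every other library. Under the Ern2-/- label the values were 1748, 1495 and 1066 after colonization, 767, 1015 and 825 in CONV mice and 541, 413 and 942 in GF mice. Klf4 (ENSMUSG00000003032.8, chr4:55527143-55532466, minus strand), a zinc-finger factor of goblet and of other differentiated epithelial cells, followed another order. It was lowest with recent colonization, at 6803, 8894 and 6963 in COLONIZED-WT and 8656, 7757 and 7588 in COLONIZED-Ern2-/-, against 10953, 12305 and 16430 in GF-WT. In CONV mice Klf4 ranged from 8723 to 16068 in WT and from 8539 to 19054 in Ern2-/- libraries.

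Among the forkhead factors, Foxa3 (ENSMUSG00000040891.6, chr7:19013284-19023538, minus strand) resembled Spdef. GF-WT libraries had 763, 678 and 590 normalized counts of Foxa3, COLONIZED-WT 1023, 1025 and 937 and CONV-WT 1628, 1802 and 1125, so that the 3 WT groups did not overlap. With the Ern2-/- label it had 780, 584 and 570 after colonization, 499, 664 and 566 in CONV mice and 493, 410 and 733 in GF mice, and these groups overlapped. Foxa2 (ENSMUSG00000037025.11, chr2:148042877-148046969, minus strand) had another order of means, with the highest in GF-WT, at 1379, 777 and 501, and its lowest in CONV-Ern2-/-, at 250, 329 and 259. Foxa1 (ENSMUSG00000035451.7, chr12:57540628-57546916, minus strand) had group means from 1402 to 1908, and each pair of neighbours in its order overlapped.

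The ER-bound factors Creb3l1 (ENSMUSG00000027230.9, chr2:91982328-92024502, minus strand) and Creb3l4 (ENSMUSG00000027938.11, chr3:90237500-90243512, minus strand) had their highest means in COLONIZED-WT. Creb3l1 had 9829, 9425 and 8893 normalized counts in COLONIZED-WT, 6831, 5525 and 5025 in GF-WT and 11470, 9049 and 3888 in CONV-WT. In libraries labelled Ern2-/- it had 9081, 6970 and 6254 after colonization, 5938, 2742 and 5029 in GF mice and 2933, 3384 and 2180 in CONV mice. The COLONIZED libraries of both labels lay above the CONV-Ern2-/- ones, and CONV-WT was split, with replicate 3 far below the other two. Creb3l4 showed the same split, at 1119, 1120.0 and 396 in CONV-WT, and had 294, 211 and 185 in CONV-Ern2-/-.

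The first question was how the genotype label bore on these factors when mice were conventionally raised. In CONV-Ern2-/- relative to CONV-WT, 6 of 9 members fell and none rose by DESeq2, where 1.87% of all 13178 tested genes were called lower (adjusted p under 0.01) and 2.89% in either direction. The members' median log2 fold change was -1.52, beside 0.02 over all tested genes. The largest change was in Gfi1, which fell by 2.97 on the log2 scale (SE 0.35, DESeq2 adjusted p 1.61e-13), or 7.84-fold. Gfi1 in CONV-Ern2-/- replicate 3 was also the lowest raw count of any member, at 18 reads. Spdef fell by 2.09 (SE 0.36, adjusted p 1.83e-06), Creb3l4 fell by 1.92 (SE 0.45, adjusted p 0.00109), Atoh1 fell by 1.56 (SE 0.26, adjusted p 4.21e-07), Creb3l1 fell by 1.52 (SE 0.42, adjusted p 0.00982) and Foxa3 fell by 1.40 (SE 0.26, adjusted p 1.67e-05). Libraries did not overlap for 7 members, all lower, where 11.5% of all tested genes were lower without overlap. The seventh was Foxa2, which differed by -0.98 on that scale (SE 0.35, adjusted p 0.0799) and was not called. Klf4 differed by 0.21 (95% interval -0.56 to 0.98) and Foxa1 by -0.34 (-0.74 to 0.05), neither of them called.

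The calls in CONV mice were not equally firm. Atoh1, Gfi1, Spdef and Foxa3 were called in all 6 DESeq2 fits made without 1 of the libraries, Creb3l4 in 2 of 6 and Creb3l1 in 1 of 6. With the sex of the libraries, read from Xist and Y-linked genes, as a covariate, Foxa3 was not called (adjusted p 0.0154) and the other 5 were. By edgeR none of the 9 was called at an adjusted p under 0.01, as was 0% of all genes, with 7 at an unadjusted p under 0.05, where 12.8% of all genes were. The edgeR adjusted p was 0.0278 for Gfi1, 0.0339 for Atoh1, 0.0397 for Spdef, 0.0455 for Foxa3, 0.0844 for Creb3l4 and 0.144 for Creb3l1. Without CONV-WT replicate 3, DESeq2 called 7 members lower, where 5.43% of all tested genes were, with Foxa2 added at -1.25 (adjusted p 3.52e-05), and Creb3l1 stood at -1.86 (adjusted p 5.15e-11).

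**Figure D3:**
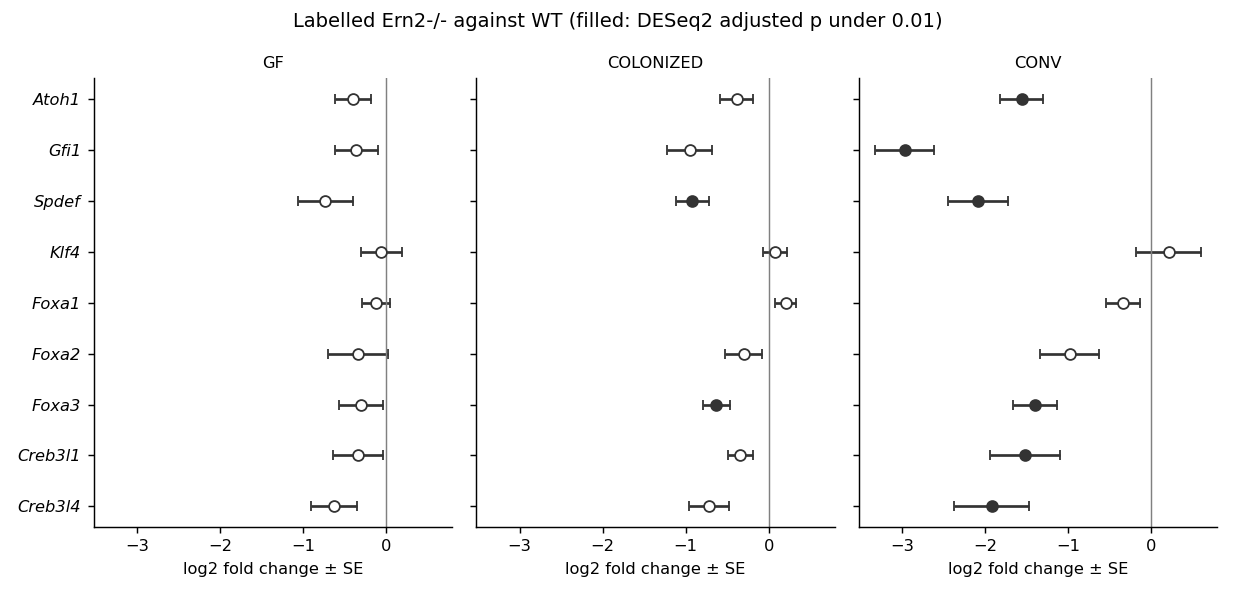
Log2 fold change (x axis, whiskers are the SE) of each of the 9 factors between libraries labelled Ern2-/- and WT in GF, COLONIZED and CONV mice; filled points were called by DESeq2 at an adjusted p under 0.01. No point is filled in GF mice, 2 are in COLONIZED mice (Spdef at -0.92, Foxa3 at -0.63) and 6 in CONV mice, where Gfi1 lies farthest to the left at -2.97.

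Levels within CONV-WT replicate 3 divided the members. Its counts were the lowest of the 3 CONV-WT libraries for 8 of 9 members, Klf4 being the highest. All 7 members that did not overlap still lay above the highest CONV-Ern2-/- library there, but by unequal ratios, namely 5.79 for Gfi1, 2.05 for Spdef, 2.00 for Atoh1, 1.69 for Foxa3, 1.35 for Creb3l4, 1.15 for Creb3l1 and 1.01 for Foxa2. Against the mean of CONV-WT replicates 1 and 2, the same library had 0.35 of the Creb3l4 and 0.38 of the Creb3l1 counts but 0.72 of the Atoh1 and 0.70 of the Gfi1 counts. Stem markers (5 genes, none at 0) moved with the members too, summing to 1060 to 1435 in CONV-Ern2-/- and 1569 to 3065 in CONV-WT without overlap, and the epithelial sum was 137710 to 144470 against 100960 to 113720. The part of goblet, absorptive, stem and epithelial markers in these differences was not tested.

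In germ-free mice the comparison of GF-Ern2-/- with GF-WT gave no call among the 9 members by DESeq2, where 0.035% of 17167 tested genes were called, and edgeR called 0 as well (0% of all genes). At an unadjusted p under 0.05 there were 2 members by DESeq2, Spdef and Creb3l4 (1.48% of all genes), and 3 by edgeR (1.72% of all genes). All 9 log2 fold changes were negative, with a median of -0.34 beside 0.02 over all tested genes. Spdef had -0.74 (SE 0.33, adjusted p 1) and Creb3l4 -0.63 (SE 0.28, adjusted p 1). For Atoh1 the interval was -0.83 to 0.02 and for Gfi1 -0.86 to 0.14, so falls of the size seen for these 2 genes in CONV mice lay outside it. Without GF-Ern2-/- replicate 2, in which 8 of 9 members were the lowest of their group, 0 members were called and Spdef stood at -0.52. Without replicate 3 of that group Spdef stood at -1.15 (DESeq2 adjusted p 0.0398), again not called. Replicate 2 was the one GF-Ern2-/- library with low Ern2 (386 normalized counts), whereas replicates 1 and 3 were at WT level.

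After colonization, 2 members fell in the libraries labelled Ern2-/- and none rose, where 0.846% of 12181 tested genes were called lower by DESeq2 and 1.36% in either direction. Spdef fell by 0.92 (SE 0.20, DESeq2 adjusted p 0.000452) and Foxa3 fell by 0.63 (SE 0.16, adjusted p 0.00626). Leaving out 1 library at a time kept Spdef called in 5 of 6 fits and Foxa3 in 1 of 6. In 1 fit of all 18 libraries neither was called, and with the sex covariate or a replicate block Spdef alone was. Gfi1 had -0.95 (SE 0.27, adjusted p 0.0181) and Creb3l4 -0.72 (SE 0.24, adjusted p 0.0512), and these did not overlap between the groups either. Creb3l1 had -0.34 (SE 0.16, adjusted p 0.17). That gave 4 members lower without overlap, where 13.9% of tested genes were. Ern2 itself reached WT levels in COLONIZED-Ern2-/- replicate 1, which was also the highest of its group for each member but Gfi1 and Foxa1. Without that library DESeq2 called 5 members lower (2.27% of all tested genes), Atoh1, Spdef, Foxa3, Creb3l1 and Creb3l4. By edgeR 0 members were called (0.0931% of all genes were), with 6 at an unadjusted p under 0.05 (17.8% of all genes). Goblet markers summed to 154490 to 301070 against 321720 to 437630 in COLONIZED-WT and stem markers to 1435 to 1687 against 2227 to 2753, both without overlap. Endothelial markers (4 genes) were low but separate, at 27.9 to 61.2 against 86.7 to 107, with Cdh5 at 0 in both groups and Kdr at 0 in COLONIZED-WT. The part of these markers was not tested.

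In WT crypts, COLONIZED-WT and CONV-WT were both set against the same GF-WT libraries. Per the study's methods, GF mice were kept in sterile isolators and colonized mice were housed outside them. Microbes and housing therefore cannot be told apart here. In CONV-WT 3 members rose and none fell, where 5.56% of 14133 tested genes were called higher and 10.7% in either direction. Spdef rose by 1.79 on the log2 scale (SE 0.37, DESeq2 adjusted p 4.42e-05), Gfi1 by 1.34 (SE 0.30, adjusted p 0.000172) and Foxa3 by 1.16 (SE 0.25, adjusted p 9.6e-05), and these 3 were also the members that did not overlap, where 17.9% of tested genes were higher without overlap. Atoh1, which stands above them in the lineage, differed by 0.26 (95% interval -0.19 to 0.71). Spdef was called in 6 of 6 fits without 1 library and Gfi1 and Foxa3 in 5 of 6, Gfi1 being lost without GF-WT replicate 2 (adjusted p 0.0107) and Foxa3 without CONV-WT replicate 2 (adjusted p 0.0132). Without CONV-WT replicate 3 DESeq2 called 5 members higher, Creb3l1 and Creb3l4 added, where 10.2% of all tested genes were. In that setting goblet markers summed to 542460 and 618140 in CONV-WT against 206170 to 327360 in GF-WT. Stem markers summed to 2837 and 3065 against 1648 to 2176, and the part of either was not tested. With all 6 libraries edgeR called 0 of the 9 (0.379% of all genes), with 3 at an unadjusted p under 0.05 (22.9%). Tuft cell markers (5 genes, none at 0) also separated these groups, summing to 834 to 1084 in GF-WT and 1213 to 3900 in CONV-WT, and their part was not tested.

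In COLONIZED-WT 3 members rose and 1 fell, against 9.13% of 13893 tested genes called higher and 8.75% lower (17.9% in either direction). Spdef rose by 1.37 (SE 0.19, DESeq2 adjusted p 1.53e-10), which edgeR also called (adjusted p 0.00203). It was the only member edgeR called, where 5.43% of all genes were, and 5 had an unadjusted p under 0.05 (33% of all genes). Creb3l1 rose by 0.71 (SE 0.15, adjusted p 3.56e-05) and Foxa3 by 0.57 (SE 0.15, adjusted p 0.00101). Klf4 fell by 0.80 (SE 0.19, adjusted p 0.000371), or 1.74-fold. Gfi1 had 0.62 (SE 0.25, adjusted p 0.0429) without overlap, and Atoh1 differed by 0.12 (95% interval -0.19 to 0.42). No overlap was seen for 4 members higher and 1 lower, where 22.9% and 23.2% of tested genes did the same. Spdef and Creb3l1 were called in 6 of 6 fits without 1 library, Klf4 and Foxa3 in 4 of 6. With the sex pattern as a covariate Spdef alone was called. Against the same GF-WT libraries, tuft markers summed to 1739 to 3144 in COLONIZED-WT and stem markers to 2227 to 2753, against 1648 to 2176 for stem markers in GF-WT, and the part of either was not tested.

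**Figure D4:**
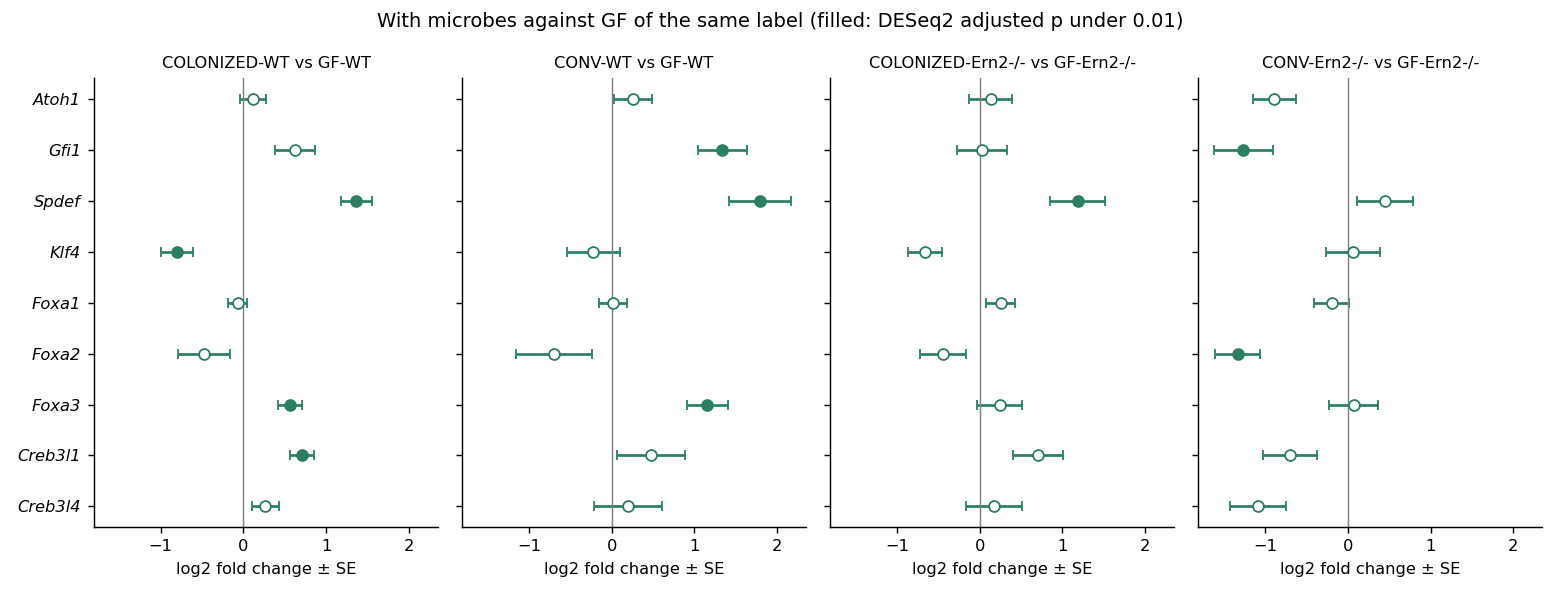
Log2 fold change (x axis, whiskers are the SE) of each of the 9 factors in mice with microbes against GF mice of the same genotype label; filled points were called by DESeq2 at an adjusted p under 0.01. Spdef lies to the right in both WT panels (1.37 and 1.79) and in COLONIZED-Ern2-/- (1.18), whereas in CONV-Ern2-/- Gfi1 (-1.26) and Foxa2 (-1.33) are filled on the left.

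In libraries labelled Ern2-/- the same microbial states were set against GF-Ern2-/-. COLONIZED-Ern2-/- against GF-Ern2-/- had 1 member higher, Spdef, which rose by 1.18 (SE 0.33, DESeq2 adjusted p 0.00562), where 3.62% of 13873 tested genes were called higher and 7.22% in either direction. Creb3l1 had 0.70 (SE 0.30, adjusted p 0.108) and Klf4 -0.66 (SE 0.20, adjusted p 0.0135). Leaving out 1 library at a time kept Spdef called in 2 of 6 fits, and without GF-Ern2-/- replicate 2 the only member called was Klf4, at -0.80 (adjusted p 2.74e-07; 4.97% of all tested genes were called lower), with Spdef at 0.97 (adjusted p 0.0107). Without COLONIZED-Ern2-/- replicate 1, the library with Ern2 at the WT level, 0 members were called, where 2.3% of all tested genes were called higher. With all libraries the edgeR test called 0 members (0.812% of all genes), with 3 at an unadjusted p under 0.05 (20.9%). Tuft markers summed to 1814 to 3528 against 825 to 1726 in GF-Ern2-/-, enteroendocrine markers to 2388 to 7102 against 993 to 1462, and stem markers to 1435 to 1687 against 1766 to 2172. The endothelial sum was 27.9 to 61.2 against 92.3 to 133, with Kdr at 0 in GF-Ern2-/-. The part of these markers was not tested.

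CONV-Ern2-/- against the same GF-Ern2-/- libraries had 2 members lower, where 2.78% of 13323 tested genes were called lower and 4.36% in either direction. Foxa2 fell by 1.33 (SE 0.27, DESeq2 adjusted p 7.83e-05) and was called in 6 of 6 fits without 1 library. Gfi1 fell by 1.26 (SE 0.36, adjusted p 0.009) and was called in 1 of 6; the sex covariate ended this call (adjusted p 0.0416) and left Foxa2 alone. Creb3l4 had -1.08 (SE 0.34, adjusted p 0.0216) and Atoh1 -0.89 (SE 0.26, adjusted p 0.0129), and Creb3l1 had -0.70 (SE 0.33, adjusted p 0.198). Without GF-Ern2-/- replicate 2 the members called lower were 4, Atoh1, Gfi1, Foxa2 and Creb3l1, where 3.51% of all tested genes were. Spdef differed by 0.45 (95% interval -0.21 to 1.11) and Foxa3 by 0.07 (-0.51 to 0.65). No member was called by edgeR (0.571% of all genes were), and 5 had an unadjusted p under 0.05 (16.7%). Between these groups goblet markers summed to 66483 to 84877 against 98419 to 237670 in GF-Ern2-/-, stem markers to 1060 to 1435 against 1766 to 2172, tuft markers to 2537 to 3557 against 825 to 1726, and enteroendocrine markers (6 genes, none at 0) to 1800 to 2511 against 993 to 1462, and their part was not tested.

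The 2 states with microbes were also set against each other. CONV-WT against COLONIZED-WT gave no DESeq2 call among the 9 members, where 0.117% of 13708 tested genes were called. An unadjusted p under 0.05 by DESeq2 was found for 2 members (8.89% of all genes), Foxa3 at 0.60 (SE 0.22, adjusted p 0.241) and Gfi1 at 0.73 (SE 0.35, adjusted p 0.514), and edgeR called 0 (0% of all genes), with 2 at that level (5.71%). Without CONV-WT replicate 3 Foxa3 (0.77, DESeq2 adjusted p 5.56e-07) and Spdef were called higher, where 0.837% of all tested genes were. In that setting the goblet sums (542460 and 618140 against 321720 to 437630) and absorptive sums (29987 and 61316 against 72737 to 170750) did not overlap. Neither did the stem sums (2837 and 3065 against 2227 to 2753) or the tuft sums (3240 and 3900 against 1739 to 3144). With all libraries the enteroendocrine marker sum was 1769 to 2161 in CONV-WT and 2438 to 3720 in COLONIZED-WT, without overlap. The part of these markers was not tested. CONV-Ern2-/- against COLONIZED-Ern2-/- gave 4 members lower, where 3.62% of 13340 tested genes were called lower and 8.37% in either direction. Creb3l1 fell by 1.39 (SE 0.23, DESeq2 adjusted p 1.86e-07; edgeR adjusted p 0.00463) and was called in 6 of 6 fits without 1 library. It was the only member called by edgeR, where 1.67% of all genes were, and 8 members had an unadjusted p under 0.05 by that test (25.3% of all genes). Gfi1 fell by 1.28 (SE 0.33, adjusted p 0.00177), Creb3l4 fell by 1.25 (SE 0.32, adjusted p 0.00173) and Atoh1 fell by 1.01 (SE 0.26, adjusted p 0.00166). Of the fits without 1 library, 4 of 6 called Atoh1, 3 of 6 Creb3l4 and 2 of 6 Gfi1, and the sex covariate ended the call of Gfi1 (adjusted p 0.0355). Without COLONIZED-Ern2-/- replicate 1, the library with Ern2 at the WT level, all 3 lost their call. Creb3l1 alone was called there, where 1.22% of all tested genes were called lower. Among members not called, Foxa2 had -0.88 (SE 0.27, adjusted p 0.0116), Spdef -0.72 (SE 0.23, adjusted p 0.0186) and Foxa1 -0.44 (SE 0.18, adjusted p 0.0652). Klf4 alone had a positive value with an unadjusted p under 0.05, at 0.73 (SE 0.27, adjusted p 0.0482). Libraries did not overlap for 7 members, all lower, where 18% of tested genes were lower without overlap. In these 2 groups the absorptive marker sum was 305630 to 412910 in CONV and 92323 to 169650 in COLONIZED libraries, the goblet sum 66483 to 84877 and 154490 to 301070, the epithelial sum 137710 to 144470 and 111300 to 125990, and the stem sum 1060 to 1434.8 and 1435.3 to 1687, and their part in the result was not tested.

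The interaction term tested directly whether the change of a factor between microbial states differed under the 2 genotype labels. Between CONV and GF mice 1 member, Gfi1, was called, where 0.178% of 12938 tested genes were called. The change of Gfi1 from GF to CONV was lower by 2.61 on the log2 scale in the libraries labelled Ern2-/- (SE 0.41, DESeq2 adjusted p 2.93e-06). WT rose by 1.34 and Ern2-/- fell by 1.26, and the Gfi1 term was called in each of 12 fits without 1 library. Atoh1 (-1.15, SE 0.32, adjusted p 0.0547), Spdef (-1.35, SE 0.52, adjusted p 0.305) and Foxa3 (-1.09, SE 0.38, adjusted p 0.203) were not called, nor were Creb3l4 (-1.29, SE 0.55, adjusted p 0.4) and Creb3l1 (-1.18, SE 0.55, adjusted p 0.507). Without GF-Ern2-/- replicate 2 the interaction of Gfi1 was -2.73 (adjusted p 6.62e-07) and it was again the only member called. Without CONV-WT replicate 3 the interaction was called for 3 members, Atoh1, Gfi1 and Creb3l4, all lower, where 1.16% of all tested genes were.

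The same term between COLONIZED and GF mice gave 0 calls among the members by DESeq2 and by edgeR, with 0 at an unadjusted p under 0.05 by either. Over all genes DESeq2 called 0.028% of 17884 tested and edgeR 0%, and 5.76% and 5.77% had an unadjusted p under 0.05. Without GF-Ern2-/- replicate 2, 0 members were called as well. For Spdef it was -0.18 with a 95% interval of -0.98 to 0.63. Between CONV and COLONIZED mice Gfi1 was called again at -2.02 (SE 0.46, DESeq2 adjusted p 0.00651), where 0.295% of 12550 tested genes were, in 4 of 12 fits without 1 library. At an unadjusted p under 0.05 only were Atoh1 (-1.17, SE 0.34, adjusted p 0.044), Creb3l4 (-1.20, SE 0.55), Creb3l1 (-1.18, SE 0.47), Spdef (-1.17, SE 0.43), Foxa3 (-0.77, SE 0.30) and Foxa1 (-0.54, SE 0.20). Without CONV-WT replicate 3, 7 members were called lower in this term, Atoh1, Gfi1, Spdef, Foxa1, Foxa3, Creb3l1 and Creb3l4, and the share of all tested genes called lower rose from 0.159% to 3.9%. Leaving out COLONIZED-Ern2-/- replicate 1 instead, the library with Ern2 at the WT level, gave 0 members called and 0 of 12478 genes tested. By edgeR 0 members (and 0% of all genes) were called in the CONV/GF and CONV/COLONIZED terms. At an unadjusted p under 0.05 there were 6 and 7 members, where 5.93% and 10% of all genes were.

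Likeness between members is described by Pearson r of log2(normalized count + 1) over the 18 libraries, which share the 6 groups and the same preparation. Spdef and Foxa3 were most alike (r 0.92, and 0.78 after group means were removed), followed by Atoh1 and Creb3l4 (0.90 and 0.63), Atoh1 and Gfi1 (0.89 and 0.51) and Creb3l1 and Creb3l4 (0.85 and 0.70). Without CONV-WT replicate 3 and GF-Ern2-/- replicate 2 (16 libraries), these 4 pairs had an r of 0.91, 0.93, 0.91 and 0.87 in that order, but only 0.56, 0.52, 0.38 and 0.44 after group means were removed. Klf4 had a negative r with each of the other members, from -0.51 with Creb3l1 to -0.10 with Foxa2, but the sign did not hold within groups. After group means were removed 4 of its 8 values were positive (0.27 with Atoh1), and over the 16 libraries 7 of 8 were (0.58 with Atoh1, 0.35 with Spdef). Spdef and Foxa2 had an r of 0.06. With the goblet marker sum, Creb3l4 had the highest r of the set (0.96, and 0.91 without group means) and Klf4 the lowest (-0.43 and -0.37). With the absorptive sum, Creb3l1 had -0.79 (-0.92 without group means), Foxa2 -0.81 (-0.79) and Gfi1 -0.60 (-0.37). Stem markers were nearer than goblet markers to Gfi1 (0.82 and 0.75) and to Foxa3 (0.67 and 0.57), and the tuft sum had an r of 0.51 with Spdef. These marker values shifted without the 2 libraries. Over the other 16, the r with the goblet sum was 0.97 for Creb3l4, 0.92 for Gfi1 and 0.73 for Foxa3, and with the stem sum 0.90 for Gfi1 and 0.77 for Foxa3. Without group means the goblet r changed sign for Klf4 (to 0.29), Spdef (0.41 to -0.15) and Foxa3 (0.33 to -0.17). It stayed positive for the other members, at 0.86 for Creb3l4. With the absorptive sum Creb3l1 had -0.75 and Gfi1 -0.73 over these libraries, and -0.76 and 0.02 without group means.

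**Figure D5:**
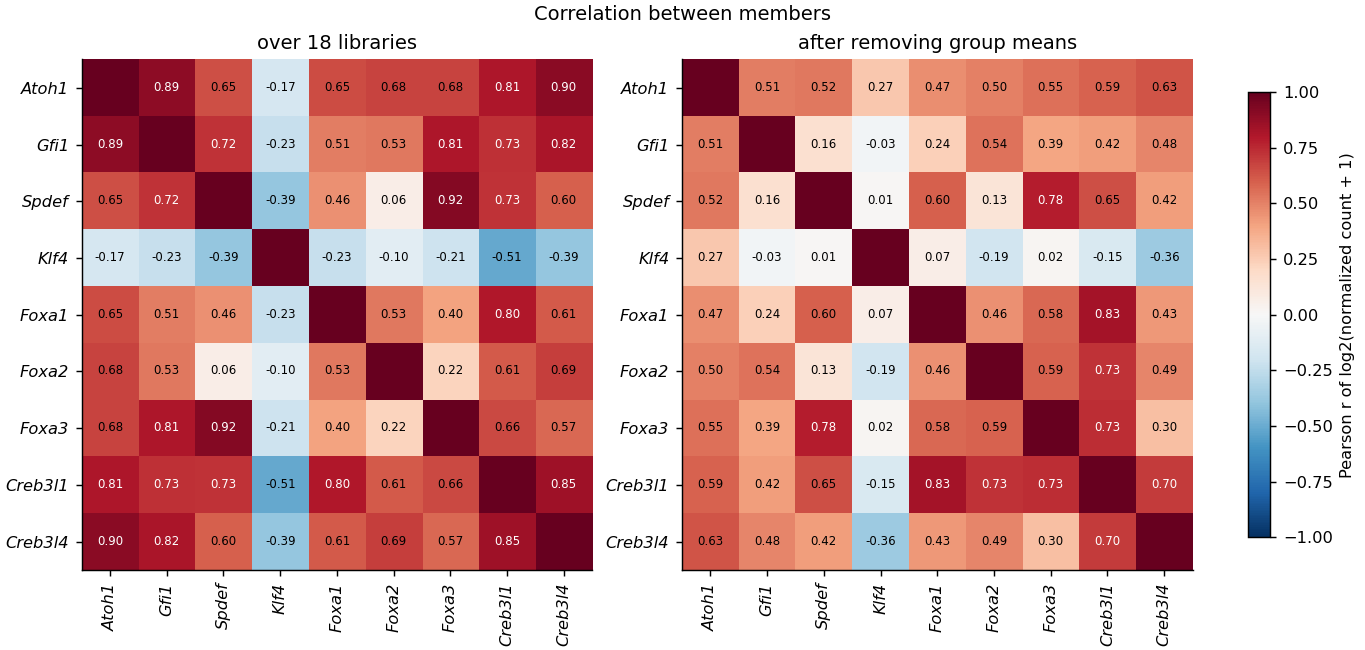
Pearson r between each pair of the 9 factors over 18 libraries (left) and after group means were removed (right), on the scale of log2(normalized count + 1), with red for positive and blue for negative r. Spdef with Foxa3 keeps a high r on both sides (0.92 and 0.78), Atoh1 with Gfi1 has 0.89 on the left and 0.51 on the right, and the Klf4 row is negative throughout on the left.

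Among 10852 genes with a mean of at least 50 normalized counts, those with the pattern most like each member were named. Spdef was most like Etv5 (r 0.95), Mt3 (0.95) and Copz2 (0.94), and Foxa3 most like Copz2 (0.95), Clps (0.93) and Slc9a3r2 (0.92). Gfi1 was most like Hpd (0.93, but 0.48 without group means), Tpsg1 (0.92 and 0.39) and Rab15 (0.91 and 0.35), and Atoh1 most like Rasd1 (0.94), Hpd (0.94) and Tnfaip8 (0.93). Copz2 thus stood near both Spdef and Foxa3, and Hpd near both Atoh1 and Gfi1. Creb3l1 was most like Chst4 (0.97), Ipo4 (0.96) and Prelp (0.95), and Creb3l4 most like Bace2 (0.97), Ptprn2 (0.97) and Qsox1 (0.96). For Klf4 these were Arhgef2 (0.93), Dlg3 (0.92) and Chp2 (0.92), for Foxa1 Foxn2 (0.91), Taf2 (0.90) and Msi2 (0.90), and for Foxa2 Acss2 (0.94), BC026585 (0.94) and Lrch1 (0.93). Without the 2 libraries named above the r of these 27 pairs ran from 0.90 to 0.99.

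Goblet cell products and secretory machinery were counted beside the factors. Of 20 goblet products, 9 of 19 tested fell in CONV-Ern2-/- against CONV-WT and 1 rose, with a median log2 fold change of -1.38, where 1.87% of all tested genes were called lower and 1.02% higher. The count was 14 lower and 1 higher without CONV-WT replicate 3, where 5.43% and 7.43% of all tested genes were. The list of 20 holds Ern2, the targeted gene itself, which was one of these 14. Retnlb, which encodes a secreted antimicrobial protein, fell by 4.30 (SE 0.54, DESeq2 adjusted p 4.34e-12), Spink4 fell by 2.33 and Tpsg1 fell by 2.18, while Guca2a, which encodes guanylin, rose by 1.20 (adjusted p 1.73e-05). In COLONIZED-WT against GF-WT 10 of 20 rose and 2 fell (9.13% and 8.75% of all tested genes did), the latter Tff3 and Zg16 (both named after their values were seen), and Retnlb rose by 4.66 and Muc2 by 1.55; edgeR called 7 of the 20, all higher, where it called 5.43% of all genes. Of 20 XBP1 and vesicle genes, 3 fell in CONV-Ern2-/-, of which Copz2 fell by 2.45, Bhlha15 (MIST1, a secretory cell factor) fell by 1.85 and Sec24d fell by 1.23, and 10 fell without CONV-WT replicate 3. Against COLONIZED-WT, 4 of 20 were higher with the Ern2-/- label, Pdia4 (0.76), Creld2 (0.82), Hspa5 (0.80) and Hsp90b1 (0.65), all of ER folding, and 1 lower, Copz2, where 0.517% of all tested genes were called higher; edgeR called 0 of the 20 (0.0931% of all genes), with 11 at an unadjusted p under 0.05 (17.8% of all genes). Pdia4 and Hsp90b1 were named after their values were seen. Without COLONIZED-Ern2-/- replicate 1 the counts were 2 higher and 2 lower, where 3.03% and 2.27% of all tested genes were. Pdia4 and Copz2 were called there, whereas Creld2, Hspa5 and Hsp90b1 were not. The genotype effect on this list was not shown to differ between CONV and COLONIZED mice: the interaction called 0 of the 20 by DESeq2, with 5 at an unadjusted p under 0.05 and a median of -0.61, and 0 by edgeR, with 4 (10% of all genes). That term called 8 of the 20, all lower, without CONV-WT replicate 3 (3.9% of all tested genes were lower), and without COLONIZED-Ern2-/- replicate 1 it called 0. Of the same 20, 13 rose in COLONIZED-WT against GF-WT. Bhlha15 rose by 2.94 there (SE 0.26, DESeq2 adjusted p 1.13e-26), and edgeR called 11 of the 20, all higher (5.43% of all genes). In COLONIZED-Ern2-/- against GF-Ern2-/- 7 of the 20 rose, where 3.62% of all tested genes were called higher. The count was 8 without GF-Ern2-/- replicate 2 (5.22% of all tested genes) and 5 without COLONIZED-Ern2-/- replicate 1 (2.3%). With all libraries edgeR called 1, Creld2, where it called 0.812% of all genes. By edgeR none of either list was called in CONV-Ern2-/- against CONV-WT, with 13 and 6 of 20 at an unadjusted p under 0.05 (12.8% of all genes). Ern2 was among these 13. The 2 lists were chosen with earlier results of these data known.

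Notch pathway genes and further transcription factors were counted in the same way. Of 18 Notch pathway genes, 0 of 16 tested were called in CONV-Ern2-/- against CONV-WT by DESeq2, where 2.89% of all tested genes were. Their median was -0.05, and the smallest adjusted p by DESeq2 was 0.0469, for Hes6 (-0.88, SE 0.29). The list had 3 genes at an unadjusted p under 0.05 by each tool, near the share of all genes at that level (16.9% by DESeq2 and 12.8% by edgeR), with 0 calls by edgeR. DESeq2 called 3 of 15, Hes6 among them, without CONV-WT replicate 3, where 12.9% of all tested genes were called. In COLONIZED-WT against GF-WT 2 of 17 tested rose, a share near the 9.13% of all tested genes called higher, namely the ligand gene Jag2 (1.20, SE 0.34, DESeq2 adjusted p 0.00289) and Rfng (0.48, SE 0.14, adjusted p 0.004), and edgeR called 0 of the list, with 8 at an unadjusted p under 0.05 (33% of all genes). Of 16 genes listed as enteroendocrine and tuft factors, 1 of 15 tested fell in CONV-Ern2-/-, Hopx (-1.07, SE 0.27, DESeq2 adjusted p 0.00345), where 1.87% of all tested genes were called lower. Hopx is not specific to either lineage, so its fall says nothing about them. By edgeR 0 of this list were called there (0% of all genes). By DESeq2 5 of 16 rose in COLONIZED-WT, where 9.13% of all tested genes were called higher. Among them were Pou2f3 (1.71), the tuft cell factor, and Neurog3 (1.34), which starts the enteroendocrine program, but also Hopx. There edgeR called 1 of the 16, Pou2f3, a share near the 5.43% of all genes it called. Among 7 other CREB3 and related bZIP factors 1 rose in CONV-Ern2-/-, Creb3l3, at 95.9 ± 6.76 against 13.6 ± 13.5 normalized counts (SD, n = 3 libraries), where 1.02% of all tested genes were called higher; edgeR called 0 of the 7. Of 20 absorptive and general intestinal factors none was called between the CONV groups by DESeq2, Klf6 and Sox9 having the smallest adjusted p (0.0106 and 0.0111). By DESeq2 and by edgeR 5 of these had an unadjusted p under 0.05 (16.9% and 12.8% of all genes), edgeR called 0, and without CONV-WT replicate 3 DESeq2 called 5 higher and 3 lower, where 7.43% and 5.43% of all tested genes were. In COLONIZED-WT against GF-WT 1 of the 20 fell, a share below the 8.75% of all tested genes called lower, namely Gata4 at 5.03 against 31.2. The edgeR test called 0 of the 20 there (5.43% of all genes).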

How the data were processed

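RNA-Seq of intact colon crypts was examined in 18 libraries. Per the study's methods, stranded mRNA libraries were sequenced as 75-cycle single-end reads, and the authors aligned them with STAR; the submitters' processing notes name mm10. The table that the authors deposited holds raw counts for each gene symbol and library, without normalization or pooling. The annotation and strand setting of the counting are not given in the sources used here. Columns were matched by the column number in each label, and 0 columns belonged to no sample. Raw counts of the members ran from 18 to 23667 per library.

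Each of 9 comparisons was fitted over all genes on its own 6 libraries, and each of 3 interactions on 12, by the Wald test of DESeq2 1.42.0 (R 4.3.3) with its default size factors and filters (independent filtering, Cook's distance) and without shrinkage. Adjusted p-values are Benjamini-Hochberg over all genes tested, called under 0.01 as in the study's methods. Intervals are 95% Wald intervals. Normalized counts in the text used size factors over all 18 libraries. Alternatives were edgeR 4.0.16 (quasi-likelihood), TMM factors, a count filter (10 counts in 3 libraries), 1 fit of all 18 libraries, a replicate block, a sex pattern covariate and leaving out each library. On simulated data DESeq2 recovered more of the changed genes than edgeR but made more false calls, above the share its threshold allows. List counts and r without the 2 libraries that stood apart, and list counts without COLONIZED-Ern2-/- replicate 1, were added after seeing the data.

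Fold changes are printed for members called or with an unadjusted p under 0.05; for some others intervals are given. From each list, up to 4 genes with the smallest adjusted p in CONV-Ern2-/- against CONV-WT or COLONIZED-WT against GF-WT were named (Tff3, Zg16, Pdia4 and Hsp90b1 were added after their values were seen), and for each member the 3 genes with the highest r. Gene positions and exon lengths are from GENCODE vM21 (mm10), promoters from RefSeq on GRCm38. The members and lists were chosen with earlier results of these data known.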

Additional observations from a re-analysis of the deposited data

Results flagged for a closer look

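Gfi1 was the member for which a direct test found a different change between microbial states under the 2 genotype labels. Its CONV/GF interaction was -2.61 on the log2 scale (SE 0.41, DESeq2 adjusted p 2.93e-06; edgeR adjusted p 0.0972), since normalized counts went from 168 ± 16.0 (SD, n = 3) in GF-WT to 428 ± 146 in CONV-WT but from 130 ± 26.5 in GF-Ern2-/- to 54.2 ± 4.05 in CONV-Ern2-/-. The adjusted p over the fits that each left out 1 library ran from 3.06e-08 to 0.000305. Its CONV/COLONIZED interaction was -2.02 (SE 0.46, DESeq2 adjusted p 0.00651; edgeR adjusted p 0.333), with 257 ± 79.9 in COLONIZED-WT and 134 ± 31.5 in COLONIZED-Ern2-/-, and leaving out CONV-WT replicate 3 gave the lowest adjusted p (0.000102) and leaving out replicate 2 of that group the highest (0.0577). Of these groups, CONV-Ern2-/- lay apart from GF-Ern2-/- in goblet markers (66483 to 84877 against 98419 to 237670), stem markers (1060 to 1435 against 1766 to 2172), enteroendocrine markers (1800 to 2511 against 993 to 1462) and tuft markers (2537 to 3557 against 825 to 1726), and CONV-WT from GF-WT in tuft markers (1213 to 3900 against 834 to 1084). CONV-Ern2-/- lay apart from COLONIZED-Ern2-/- in goblet, absorptive, stem and epithelial markers. Goblet and absorptive sums of CONV-WT overlapped those of GF-WT and of COLONIZED-WT, while enteroendocrine markers were lower in CONV-WT (1769 to 2161) than in COLONIZED-WT (2438 to 3720) without overlap. For goblet markers the overlap came from CONV-WT replicate 3 alone (89510). Replicates 1 and 2, at 618140 and 542460, lay above every GF-WT (206170 to 327360) and COLONIZED-WT (321720 to 437630) library. Their absorptive sums, 29987 and 61316, lay below those of COLONIZED-WT (72737 to 170750). Without COLONIZED-Ern2-/- replicate 1, whose Ern2 count was at the WT level, the adjusted p of Gfi1 in the CONV/COLONIZED term was 0.0393. The part of these markers was not tested.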

How the results depend on the processing

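Of 53 fold changes of members in a comparison (called, or with an unadjusted p under 0.05), none changed direction under any alternative run. DESeq2 called 24 of them. Leaving out 1 library ended a call in 47 of the 156 fits of those 24 and added one in 21 of the other 240. The choice of test mattered most. By edgeR 22 of the 24 lost their call, and the number of members called was 0 in CONV-Ern2-/- against CONV-WT, COLONIZED-Ern2-/- against COLONIZED-WT, CONV-WT against GF-WT, CONV-Ern2-/- against GF-Ern2-/-, COLONIZED-Ern2-/- against GF-Ern2-/- and the CONV/GF and CONV/COLONIZED interactions, and 1 in COLONIZED-WT against GF-WT (Spdef) and in CONV-Ern2-/- against COLONIZED-Ern2-/- (Creb3l1). A single model of all 18 libraries ended 6 of the 24 calls and added 1. It called 0 members in COLONIZED-Ern2-/- against COLONIZED-WT and 1 in COLONIZED-WT against GF-WT. It also lost Creb3l4 in CONV-Ern2-/- against COLONIZED-Ern2-/- and added Atoh1 in CONV-Ern2-/- against GF-Ern2-/-. The sexes, read from Xist and Y-linked genes, were unbalanced, with the Y-linked pattern in 0 GF-WT and 3 CONV-Ern2-/- libraries of 3. With that pattern as a covariate 8 of the 24 calls were lost and 1 was added. Foxa3 was lost in CONV-Ern2-/- against CONV-WT, where 5 members were called, and Gfi1 in CONV-Ern2-/- against COLONIZED-Ern2-/-, and 1 member was called in COLONIZED-Ern2-/- against COLONIZED-WT, in COLONIZED-WT against GF-WT and in CONV-Ern2-/- against GF-Ern2-/-, and 0 in the CONV/COLONIZED interaction. The cause of these differences was not tested. The count filter changed no call, and TMM factors ended 1 and added 1.

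Counts without 1 library ran from 4 to 7 in CONV-Ern2-/- against CONV-WT, 1 to 5 in COLONIZED-Ern2-/- against COLONIZED-WT, 2 to 5 in CONV-WT against GF-WT, 3 to 4 in COLONIZED-WT against GF-WT, 1 to 4 in CONV-Ern2-/- against GF-Ern2-/-, 0 to 1 in COLONIZED-Ern2-/- against GF-Ern2-/-, 0 to 2 in CONV-WT against COLONIZED-WT, 1 to 5 in CONV-Ern2-/- against COLONIZED-Ern2-/-, 1 to 3 in the CONV/GF and 0 to 7 in the CONV/COLONIZED interaction; the highest of the last 2, and of both CONV-WT comparisons, came without CONV-WT replicate 3.

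Replicate numbers were not taken as pairs in the main fits. No comparison had every same-numbered pair of libraries correlated over 0.1 in their deviations from the group means. Still, each library of the first group correlated best with its same-numbered one in COLONIZED-Ern2-/- against GF-Ern2-/- (r 0.493, 0.09 and 0.24). The same held in CONV-WT against COLONIZED-WT (0.191, 0.089 and 0.125), so pairing was not settled. With a replicate block Gfi1 lost its call in CONV-Ern2-/- against GF-Ern2-/- (adjusted p 0.0538) and against COLONIZED-Ern2-/- (adjusted p 0.0141) and Foxa3 in COLONIZED-Ern2-/- against COLONIZED-WT, Creb3l4 was added in CONV-Ern2-/- against GF-Ern2-/- (adjusted p 0.00484), and 1 member was called in COLONIZED-Ern2-/- against COLONIZED-WT. The lowest raw count of a member was 18 reads, for Gfi1 in CONV-Ern2-/- replicate 3. The lowest library totals were those of CONV-Ern2-/- replicates 3 (5865619 counts) and 2 (7084267 counts), while replicate 1 of that group had 15419844.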
